A study of Mus musculus with 2 samples.

Results

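Transcripts of 10 genes that build and read heterochromatin or copy DNA methylation were measured in pancreatic islets of RbΔK7 knock-in mice and of control mice. The genes were Suv39h1, Suv39h2, Setdb1, Trim28, Cbx1, Cbx3, Cbx5, Dnmt1, Uhrf1 and Hells. They were chosen by name, and every gene probe that carried 1 of these symbols in both scanner files was taken, which gave 17 of the 55681 gene probes on the arrays. All 10 genes had a probe, and 6 had several. The signal was high enough for a test on 12 of these probes, from 9 genes, out of 22266 tested probes in all, and Hells was the gene with no tested probe.

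The mutant mice carried RbΔK7, a knock-in allele whose retinoblastoma protein is resistant to phosphorylation, and the other animals are described only as controls. Islets were freed with collagenase delivered through the bile duct, picked under a dissecting microscope and frozen, so each RNA sample pools the cell types of the picked islets. Each of the 2 arrays compared a mutant sample in Cy5 with a control sample in Cy3, and the 2 pairs were grown and harvested independently. The dyes were exchanged in neither pair and both arrays lay on 1 slide, so dye and genotype cannot be told apart on any probe, and age, sex, strain background and the number of animals behind a sample are not given in the sources used here.

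Heterochromatin is the compact part of the genome. The SUV39H enzymes and SETDB1 add methyl groups to lysine 9 of histone H3, TRIM28 brings SETDB1 to its targets, and the HP1 proteins encoded by Cbx5, Cbx1 and Cbx3 bind that mark. When DNA is copied, UHRF1 recognises sites methylated on the old strand alone and brings in DNMT1, which methylates the new strand, while HELLS is a remodelling ATPase that DNA methylation of repeats depends on. The retinoblastoma protein holds E2F transcription factors in check until cyclin-dependent kinases phosphorylate it, and Dnmt1, Uhrf1 and Hells are best known as genes of dividing cells.

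The values rest on what single array probes of 60 bases capture, so the probes of 4 genes on which the results turn are shown, as the deposited probe table gives them. They stand for the gene of highest ratio among the tested probes, the less responsive of the 2 Cbx3 probes, the maintenance methyltransferase and the gene that could not be tested. No stretch of a probe is singled out, so they are in lower case throughout. On mm9, the build in the file headers, the Suv39h1 probe lies at chrX:7647715-7647774 on the minus strand and the Cbx3 probe at chr6:51431757-51431816 on the plus strand. The Hells probe lies at chr19:39039914-39039973 on the plus strand. The Dnmt1 probe is listed at chr9:20711973-20712341 on the minus strand, a span of 369 bases for its 60. Whether these positions are exonic was not analysed here.
Suv39h1 probe: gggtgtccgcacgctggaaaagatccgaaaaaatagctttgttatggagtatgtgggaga
Cbx3 probe 2: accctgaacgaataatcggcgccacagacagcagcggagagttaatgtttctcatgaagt
Dnmt1 probe: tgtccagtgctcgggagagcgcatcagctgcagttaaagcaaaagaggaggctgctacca
Hells probe: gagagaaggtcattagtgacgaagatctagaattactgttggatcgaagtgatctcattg

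Because the retinoblastoma protein acts on E2F factors, the promoters of the 10 genes were searched on both strands for 3 E2F-type words of 8 letters, TTTGGCGC, TTTCGCGC and GGCGGGAA. The first 2 words share 7 of their 8 letters. Of the 32851 promoters in the RefSeq table, each 250 bases before to 50 after a gene's start, 0.514% held the first word, 0.323% the second and 2.19% the third. Any of them stood in 3.39% of 27025 genes, and among the 10 genes Suv39h2, Trim28, Cbx3, Dnmt1 and Uhrf1 held 1 or more. So did 5 of the 10 S phase genes of the table that serve below as a comparison. A promoter of each of the last 3 is printed 5′ to 3′ with the matches in capitals, from RefSeq on GRCm38.p6. The windows are chr6:51470366-51470665 on the plus strand for Cbx3, chr9:20952574-20952873 on the minus strand for Dnmt1 and chr17:56304063-56304362 on the plus strand for Uhrf1. Cbx3 has TTTGGCGC 168 bases before the start, and Uhrf1 has TTTCGCGC 185 bases before it. Dnmt1 has TTTGGCGC 33 bases after the start and TTTCGCGC, read from the other strand, 219 bases before it. A second Uhrf1 promoter, not printed, has GGCGGGAA, read from the other strand, 48 bases before its own start. A match describes these letters alone and is not evidence that a factor binds. Other spellings were not searched, so a gene without a match is not shown to lack an E2F-type sequence.
Cbx3 promoter: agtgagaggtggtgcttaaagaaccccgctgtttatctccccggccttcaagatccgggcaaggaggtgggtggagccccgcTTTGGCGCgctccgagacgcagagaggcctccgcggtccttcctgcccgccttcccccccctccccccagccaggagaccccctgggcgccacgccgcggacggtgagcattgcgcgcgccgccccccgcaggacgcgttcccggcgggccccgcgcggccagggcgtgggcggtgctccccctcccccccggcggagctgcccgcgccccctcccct
Dnmt1 promoter: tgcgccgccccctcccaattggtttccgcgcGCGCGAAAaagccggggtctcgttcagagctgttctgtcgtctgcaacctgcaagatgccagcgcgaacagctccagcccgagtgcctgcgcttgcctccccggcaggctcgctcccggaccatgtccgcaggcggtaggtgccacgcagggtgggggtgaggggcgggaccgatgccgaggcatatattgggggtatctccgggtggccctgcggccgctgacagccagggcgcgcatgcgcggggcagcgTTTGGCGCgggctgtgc
Uhrf1 promoter: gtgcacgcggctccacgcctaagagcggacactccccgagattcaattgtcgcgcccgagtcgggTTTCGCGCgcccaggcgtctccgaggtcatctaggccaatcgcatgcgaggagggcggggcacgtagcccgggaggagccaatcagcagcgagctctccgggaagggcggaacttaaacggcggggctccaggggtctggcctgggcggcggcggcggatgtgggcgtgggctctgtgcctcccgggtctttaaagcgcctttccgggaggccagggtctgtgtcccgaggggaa

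None of the 12 tested probes of these genes passed the test between mutant and control islets. With an offset of 50 added to the signals and loess, the largest mean difference was 1.34-fold. Ratios are log2 of mutant over control within an array, and the test was limma's moderated test of the 2 ratios against 0, adjusted over all 22266 tested probes with a threshold of 0.05. The count called higher was 0, where 82 of all tested probes were (0.368%), and the count called lower was also 0, where 3 were (0.0135%). At an unadjusted p under 0.05 the Suv39h1 probe and 1 of the 2 Cbx3 probes were higher, 2 of 12, against a background of 8.16% of all tested probes. The lowest adjusted p among the 12 was 0.369, for Suv39h1. With 2 pairs, differences of the sizes seen here can miss the threshold, and an adjusted p above it does not show that levels were alike.

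The mean ratios ran from -0.10 for a Cbx1 probe, the dimmest of the 12, to 0.42 for Suv39h1. With the offset of 50 and loess, the 95% intervals of all 12 means lay within a 2-fold change in either direction. So did those of 94.7% of all tested probes. The highest upper bound was 1.71-fold, again for Suv39h1, and intervals were computed for this processing only. On both arrays 7 of the 12 probes were higher in the mutant, where 32.4% of all tested probes were, and 0 were lower on both, where 25.3% were. The other 5 had opposite signs on the 2 arrays. The median ratio of the 12 probes was 0.15 in replicate 1 and 0.09 in replicate 2, and that of all tested probes was 0.02 on each.

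Precision is limited by the number of arrays: each probe has 2 ratios and 1 residual degree of freedom, and limma's prior adds 4.90. The median SD between the 2 ratios was 0.131 for the 12 probes and 0.146 for all tested probes. For repeated spots of 1 probe on 1 array, the median SD was taken over probes within 0.5 log2 of each tested probe's brightness. These medians ran from 0.0498 to 0.130 in replicate 1 and from 0.0416 to 0.134 in replicate 2. The plot of ratios by probe shows which intervals cross 0.

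**Figure D1:**
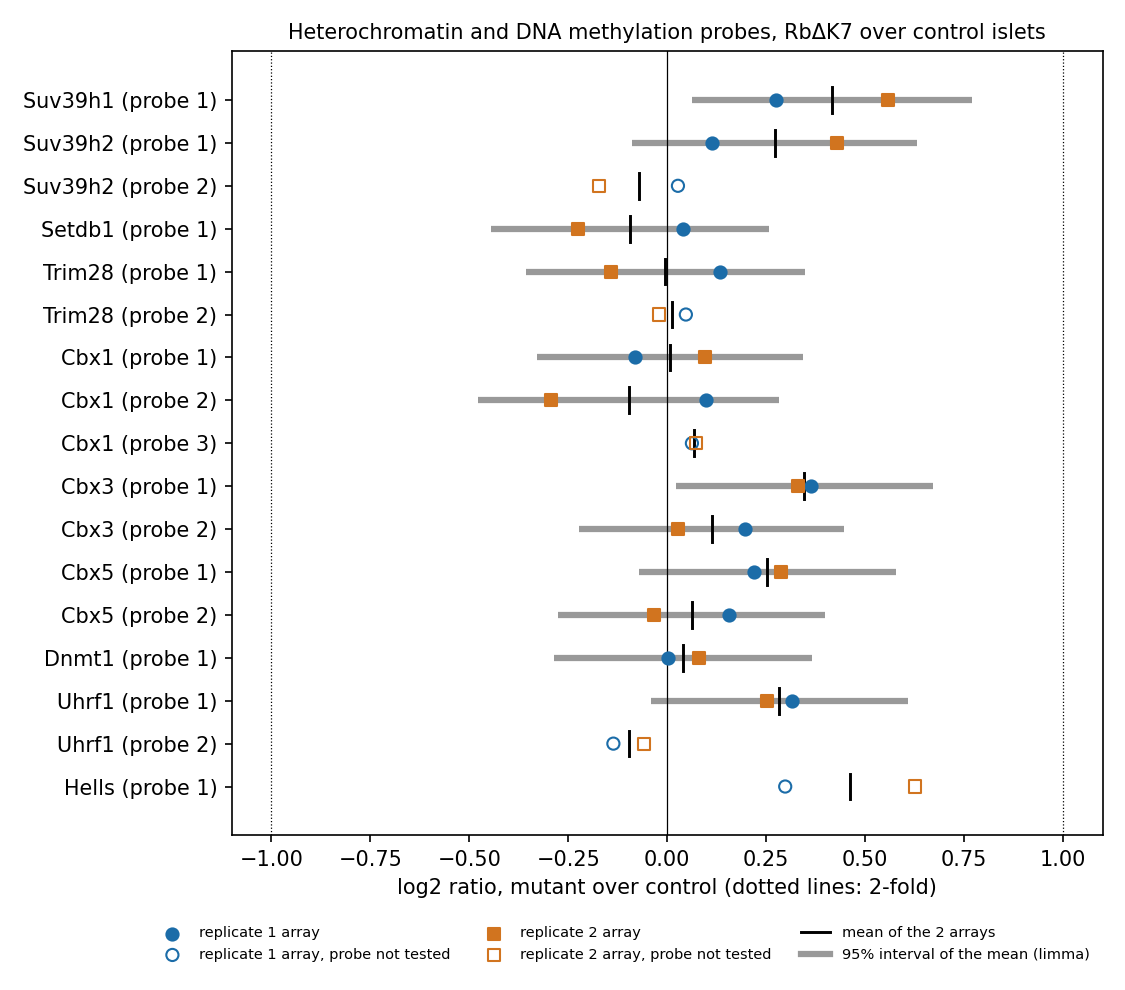
The log2 ratio of mutant over control (horizontal axis) is drawn for all 17 probes, with filled points for tested and open points for untested probes, circles for replicate 1 and squares for replicate 2; black ticks are means and grey bars limma 95% intervals. All 12 bars lie inside the dotted 2-fold lines, and the bars of Suv39h1 and Cbx3 probe 1 do not reach 0.

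Among the enzymes that methylate lysine 9 of histone H3, both SUV39H genes were higher in the mutant on both arrays without passing the test, and Setdb1 and its partner Trim28 showed opposite signs on the 2 arrays. Suv39h1 had normalized log2 channel levels of 7.10 and 7.61 in mutant islets, against 6.82 and 7.05 in control islets (replicates 1 and 2 in that order, here and below). Both mutant samples lay above both control samples. Its ratios were 0.28 and 0.56 and averaged 0.42 ± 0.20 (SD, n = 2), which is 1.34-fold with a 95% interval of 1.04 to 1.71 (limma adjusted p = 0.369). The offset that was added to the signals (50) shrinks ratios of dim probes, and from Agilent's processed signals the mean of Suv39h1 was 0.84 and with an offset of 0 it was 0.65, neither of which passed the test.

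Suv39h2, the second gene of this enzyme pair, had levels of 11.99 and 12.09 in mutant islets, against 11.88 and 11.66 in control islets. These levels did not overlap either, and the ratios were 0.11 and 0.43 (mean 0.27 ± 0.22, SD, n = 2; limma adjusted p = 0.567). They come from a probe at chr2:3373186-3373245 that holds 14 TG steps, as many or more of which occur in 0.178% of gene probes. The other Suv39h2 probe, nearer the transcript's start, was not well above background in either channel on either array, so the brightness of the first probe was not seen with the second.

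Setdb1, the methyltransferase recruited by zinc finger repressors, had levels of 6.93 and 6.70 in mutant islets, against 6.89 and 6.92 in control islets. The 2 genotypes overlapped, and the mean ratio was -0.09 ± 0.19 (SD, n = 2; limma adjusted p = 0.869). Trim28, the corepressor that links those zinc finger proteins to SETDB1 and HP1, had levels of 9.33 and 9.20 in mutant islets, against 9.20 and 9.34 in control islets. Its samples overlapped as well, and the mean ratio was -0.0046 ± 0.20 (SD, n = 2; limma adjusted p = 0.993), with a 95% interval of -0.36 to 0.35. A further Trim28 probe, listed on the opposite strand, was not above background in any sample.

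No HP1 gene passed the test: Cbx3 and Cbx5 were higher in the mutant on both arrays on their brighter probes, and Cbx1 had opposite signs on the 2 arrays. Cbx3, which encodes HP1 gamma, had levels of 10.24 and 10.47 in mutant islets on its brighter probe, against 9.88 and 10.14 in control islets. Both mutant samples were above both control samples, with ratios of 0.36 and 0.33 that averaged 0.35 ± 0.023 (SD, n = 2; limma adjusted p = 0.407). The SD between its arrays was below the median SDs of repeated spots at its brightness (0.0665 in replicate 1 and 0.06415 in replicate 2). The closeness of these 2 values is therefore not a measure of their error. The 95% interval, which borrows the spread of all probes, was 0.02 to 0.67.

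The Cbx3 probe printed above had ratios of 0.20 and 0.03 (limma adjusted p = 0.829; average 0.11 ± 0.12, SD, n = 2). Its levels were 10.11 and 10.28 in mutant islets, against 9.91 and 10.26 in control islets, so the groups overlapped. The 2 probes were almost equally bright, with mean intensities of 10.18 and 10.13. In both control samples the printed probe had the higher level, so the other probe ranks as brighter through its mutant channel alone. Averaged over its 2 probes, Cbx3 had a mean ratio of 0.23, and the difference between its probes was not tested. The brighter probe starts at base 1684 of the listed transcript and the printed one at base 517.

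Cbx5, which encodes HP1 alpha, had levels of 7.94 and 8.20 in mutant islets on its brighter probe, against 7.72 and 7.91 in control islets. The groups did not overlap, and the ratios of 0.22 and 0.29 averaged 0.25 ± 0.048 (SD, n = 2; limma adjusted p = 0.553). The other Cbx5 probe had ratios of 0.16 and -0.03 and overlapping levels (limma adjusted p = 0.917). Averaged over its 2 probes, Cbx5 had a mean ratio of 0.16.

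Cbx1, which encodes HP1 beta, had levels of 8.63 and 8.75 in mutant islets on its brightest probe, against 8.71 and 8.65 in control islets. The samples overlapped and the mean ratio was 0.0073 ± 0.13 (SD, n = 2; limma adjusted p = 0.991), with a 95% interval of -0.33 to 0.34. The next Cbx1 probe had ratios of 0.10 and -0.29 (limma adjusted p = 0.874). A further probe, well above background only in 1 mutant sample, was not tested.

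**Figure D2:**
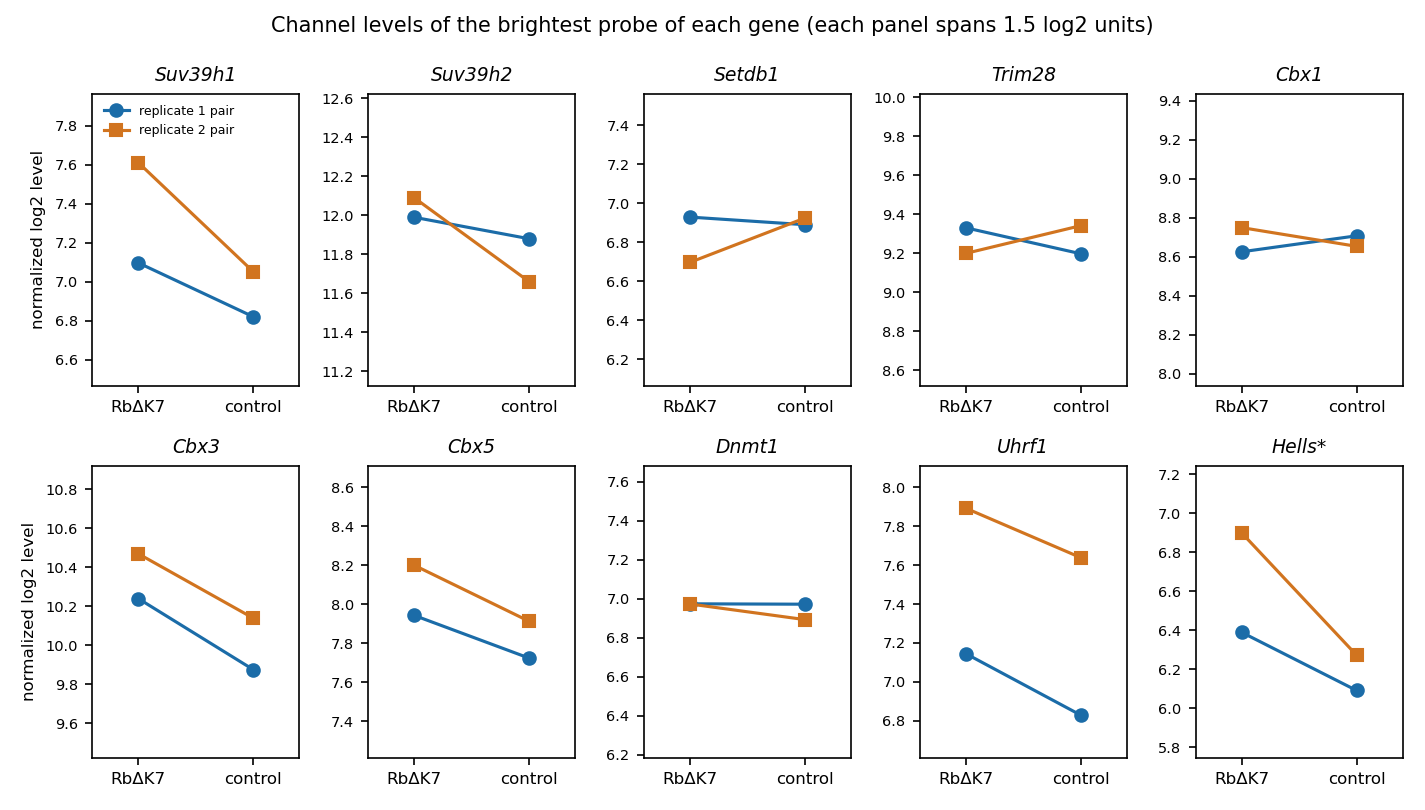
Normalized log2 channel levels of the brightest probe of each gene are drawn for mutant samples (left) and control samples (right), with a line joining the samples of 1 array; every panel spans 1.5 log2 units, and the asterisk marks Hells, which was not tested. The lines of Suv39h1, Suv39h2, Cbx3, Cbx5, Uhrf1 and Hells slope down to the control on both arrays, and those of Setdb1, Trim28 and Cbx1 slope in opposite directions.

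In the maintenance methylation group, Dnmt1 was nearly equal in the genotypes and Uhrf1 was higher in the mutant on both arrays without passing the test. Dnmt1 had levels of 6.97 and 6.97 in mutant islets, against 6.97 and 6.89 in control islets. The mutant samples were the higher ones by a margin of 0.0018 in replicate 1 and 0.08 in replicate 2, and the mean ratio was 0.04 ± 0.055 (SD, n = 2; limma adjusted p = 0.947). Its 95% interval of -0.29 to 0.37 allows a difference of either sign, in a gene whose printed promoter holds 2 of the E2F-type words. All 4 Dnmt1 levels lay close to the dim end, since the lowest levels among probes well above background were 6.36 and 5.59 in the mutant channel and 6.41 and 6.41 in the control channel.

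Uhrf1 had levels of 7.15 and 7.89 in mutant islets, against 6.83 and 7.64 in control islets. Within each array the mutant sample was higher, with ratios of 0.31 and 0.25 that averaged 0.28 ± 0.043 (SD, n = 2; limma adjusted p = 0.503). Across arrays the groups overlapped: the control sample of replicate 2 was brighter than the mutant sample of replicate 1, so the pairs differed from each other by more than the genotypes did. From Agilent's processed signals the mean was 0.44 and with an offset of 0 it was 0.43, and neither passed the test. The other Uhrf1 probe was not above background in any sample.

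Hells had levels of 6.39 and 6.90 in mutant islets, against 6.09 and 6.27 in control islets. The probe was well above background in 1 of the 2 mutant samples and in neither control sample, so the control level is a bound. In replicate 1 the mutant level was itself below the lowest control signal well above background (6.41), so no fold is given for the gene. When all probes were tested without regard to background, its mean ratio was 0.46 and its limma adjusted p was 0.232. In the authors' deposited table, which takes processed signals without an offset, its log10 ratio was 0.501 (Feature Extraction p = 0.0977) in replicate 1 and 0.752 (p = 4.74e-07) in replicate 2. Those p-values cover technical error within 1 array and not the spread between pairs.

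Channel levels of the genotypes did not overlap on 5 of the 12 tested probes, those of Suv39h1, Suv39h2 and Dnmt1 and the brighter probes of Cbx3 and Cbx5, and on 37.5% of all tested probes. Levels of different probes depend on probe sequence as well as on the transcript, so the 10 genes were not ranked by level. In these bulk samples, fewer cells of a type and less RNA per cell cannot be told apart.

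The choice of normalization within arrays decided how many of these genes were called. After loess the median of all tested probes was close to 0, whereas centring each array on the median of all its gene probes left the tested probes at medians of 0.395 and 0.842. With that centring 7 of the 12 probes were called higher, where 29.9% of all tested probes were. The 7 were those of Suv39h1, Suv39h2 and Uhrf1, both Cbx3 probes, the brighter Cbx5 probe and the tested Trim28 probe. The highest mean was then 1.21 for the brighter Cbx3 probe (limma adjusted p = 0.00527), followed by 1.19 for Suv39h2 (limma adjusted p = 0.00626), both over 2-fold. The lowest of the 7 was 0.81 for Trim28 (limma adjusted p = 0.0481), and all tested probes themselves stood at the medians just given. The plot of 4 ways of processing shows that median centring moves all 12 probes to the right, brighter probes further than dim ones. Suv39h2, the brightest of the 12, went from 0.27 to 1.19. The second Cbx1 probe, the dimmest, went from -0.10 to 0.087.

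**Figure D3:**
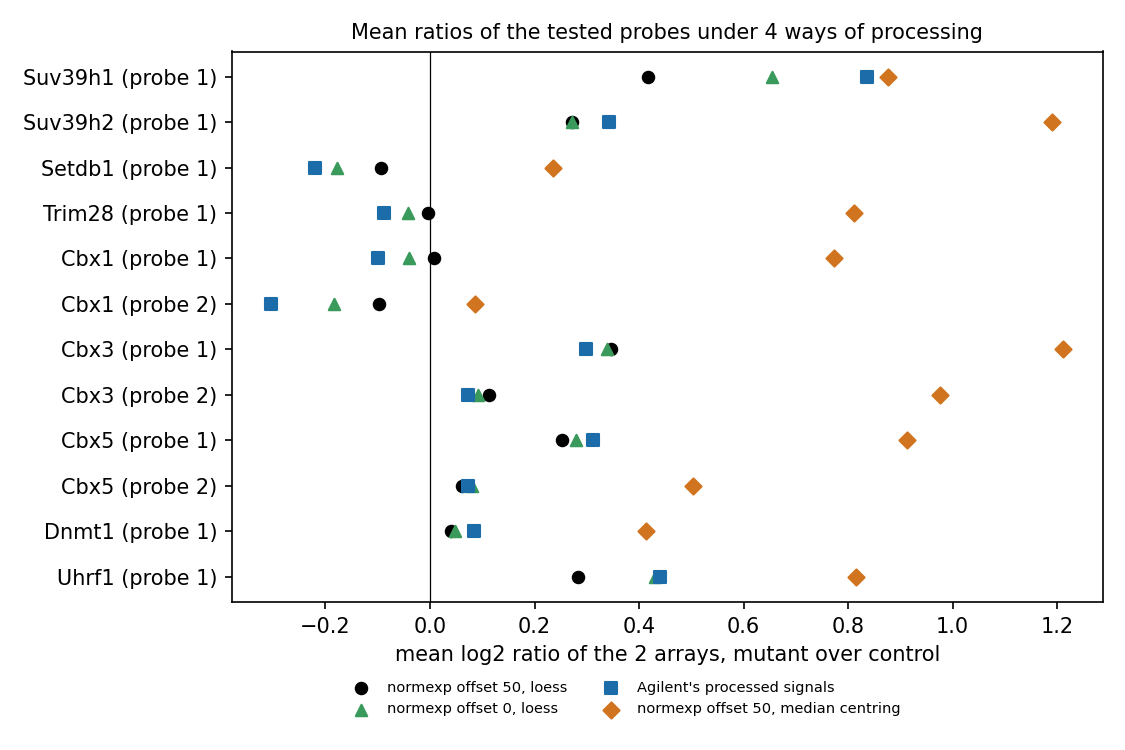
The mean log2 ratio of the 2 arrays, mutant over control (horizontal axis), is drawn for the 12 tested probes under 4 ways of processing, told apart by symbol and colour. Suv39h1 moves from 0.42 with the offset of 50 to 0.65 with an offset of 0 and 0.84 with Agilent's processed signals, and median centring places all 12 probes above 0.

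The wider pathway was read from 6 further lists with 57 genes: histone lysine methylation, its removal, DNA methylation writers, methyl-CpG readers, DNA demethylation, and heterochromatin assembly with HP1 partners. Of the 53 genes tested, 0 passed the test by limma, where 0.45% of 17104 tested genes did, and 5 had an unadjusted p under 0.05, where 12.7% of all tested genes did. On both arrays 23 were higher in the mutant (33.1% of all tested genes) and 7 were lower (25.1%). Their median ratios were 0.06 and 0.09, and those of all tested genes were 0.02 and 0.03.

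The 4 genes not tested were Kdm4d, Dnmt3l, Cdca7l and Sp100. Of 14 tested genes for heterochromatin assembly and HP1 partners, 9 were higher on both arrays and 2 lower, and of 12 genes for H3K9 and H4K20 methylation 4 were higher and 2 lower. Among 9 H3K9 demethylation genes 2 were higher on both arrays and 1 lower. Among 6 DNA methylation writers and partners 3 were higher and 1 lower, among 8 methyl-CpG readers 3 were higher and 1 lower, and among 4 DNA demethylation genes 2 were higher and 0 lower. No list held a gene that passed.

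The pathway gene of highest mean ratio was Cdca7, which encodes the zinc finger partner of HELLS and is known as a target of MYC and E2F. It had levels of 7.03 and 7.51 in mutant islets, against 6.57 and 6.85 in control islets. The groups did not overlap, and the ratios of 0.46 and 0.67 averaged 0.56 ± 0.15 (SD, n = 2; limma adjusted p = 0.226). Chaf1a, the large subunit of the CAF-1 histone chaperone that works behind the replication fork, had levels of 6.92 and 7.46 in mutant islets, against 6.53 and 6.74 in control islets. Its samples did not overlap, and its mean ratio was 0.56 ± 0.23 (SD, n = 2; limma adjusted p = 0.259).

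Ehmt1, which encodes the H3K9 methyltransferase GLP, had a mean ratio of 0.47 on its brightest probe (limma adjusted p = 0.310) and of -0.11 on another probe, so its probes disagreed in sign. Smchd1, a chromatin protein of the inactive X chromosome, had mean ratios of 0.41 (limma adjusted p = 0.339) and 0.12 on its 2 tested probes. The genes lowest on both arrays were Ehmt2, which encodes the GLP partner G9a, at -0.25, Dnmt3a, a de novo DNA methyltransferase, at -0.25, Mbd2, a methyl-CpG reader, at -0.21 on its brighter probe and 0.01 on another, and Kdm4b, an H3K9 demethylase, at -0.18. Their limma adjusted p ran from 0.584 for Ehmt2 to 0.692 for Kdm4b.

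Genes of DNA replication rose in the same arrays. Each of those that passed the test had a higher mean ratio than any of the 9 tested genes of the 10, which leaves out Hells. Of 11 tested S phase genes 10 were higher on both arrays and 5 rose by limma, with medians of 1.07 and 1.11. Mcm4, a subunit of the replicative helicase, had ratios of 1.60 and 1.42 (limma adjusted p = 0.0296), and Cdt1, which loads that helicase, had ratios of 1.07 and 1.32 (limma adjusted p = 0.0469). Pcna, the sliding clamp of replication, had ratios of 0.39 and 0.42 and did not pass (limma adjusted p = 0.336). These calls did not survive an offset of 0, with which 0 of all 22266 probes passed.

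Uhrf1, at 0.31 and 0.25, and Dnmt1, at 0.0018 and 0.08, thus lay below the S phase medians on both arrays. The difference itself was not tested. The S phase genes were spread widely, and Uhrf1 lay within their range on both arrays. Rrm2 had ratios of 0.20 and -0.45, Gins1 0.22 and 0.39 and Gins2 0.48 and 0.59, and the Mcm genes and Cdt1 lay higher. Dnmt1 lay below all of them in replicate 1. The 6 tested mitosis genes had medians of -0.07 and -0.22, with 1 higher and 4 lower on both arrays and 0 called. E2f1, itself an E2F target, had ratios of 0.97 and 0.93 (limma adjusted p = 0.0646). Rb1, which carries the mutation, had ratios of 0.48 and 0.14 (limma adjusted p = 0.517), from a probe that was not examined for telling mutant from wild-type mRNA.

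**Figure D4:**
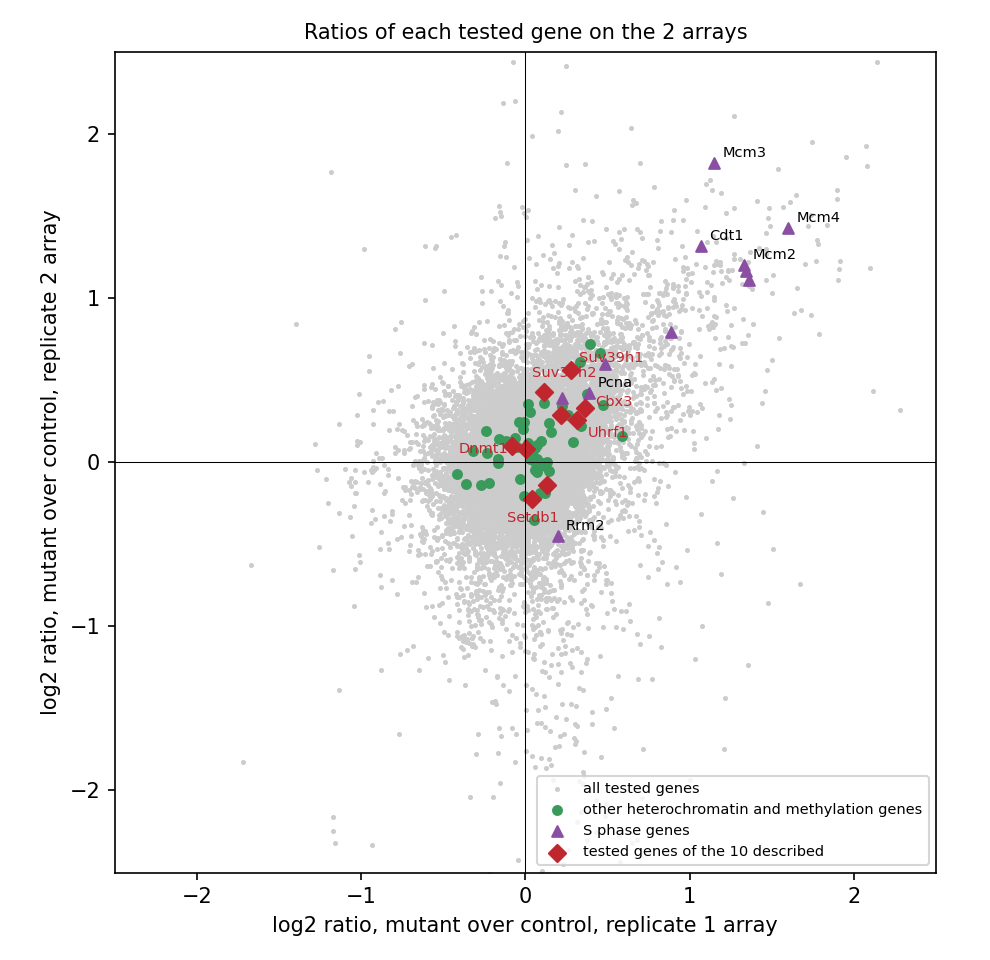
Each point is a tested gene with its log2 ratio of mutant over control on the replicate 1 array (horizontal) and on the replicate 2 array (vertical); 94 of 17104 genes lie outside the axes. The 9 tested genes of the 10 (red diamonds) lie within the grey cloud of all genes, as do the other pathway genes (green), while the 5 S phase genes that rose (among the purple triangles) have ratios above 1 on both arrays.

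Marker genes of other cell types also moved between the genotypes, and their part in the values of the 10 genes was not tested. All 10 stroma markers were higher in the mutant on both arrays, 6 of them rose by limma, and their medians were 1.95 and 1.37. The median level of the stroma markers was 9.27 and 10.50 in mutant islets, against 7.65 and 9.51 in control islets. Of 6 tested duct markers 5 were higher on both arrays and 2 rose, and of 7 endothelium markers 6 were higher and 1 rose. The 6 tested leukocyte markers had medians of 0.06 and 0.02. The 10 acinar markers had medians of 0.46 in replicate 1 and -5.19 in replicate 2. Their median level in replicate 1 was 17 in the mutant sample and 16.38 in the control sample. In replicate 2 it was 11.70 in the mutant sample and 17.69 in the control sample. All 10 beta cell markers were tested, with median levels of 12.38 and 12.72 in mutant islets, against 12.68 and 12.53 in control islets, and 9 of them had opposite signs on the 2 arrays. The 7 other endocrine markers had medians of 1.17 and 0.10.

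For the HP1 gene and the H3K9 methylation gene whose probes had the highest mean intensity, the genes most like them were found among 12936 named genes. That choice goes by probe signal and ranks no transcripts, and for Suv39h2 it rests on the TG-rich probe. Likeness was measured by the root mean square difference of the 4 channel levels after centring each gene on its own mean. For Cbx3 they were Nfia, a transcription factor gene (0.0082 log2 units), Lhfp (0.012) and E2f2, which encodes an E2F factor (0.016). For Suv39h2 they were Etl4 (0.0061), Plpp6 (0.012) and Extl2 (0.013). With 4 samples on 2 arrays the measure rests on few values, and these lists are a description only.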

How the data were processed

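RNA of mutant (Cy5) and control (Cy3) islets was compared on 2 two-colour Agilent arrays. Per the submitters' processing notes, the software was Agilent Feature Extraction 10.7.3.1. The deposited intensity values are mean spot signals and median local backgrounds of each channel, per the file headers. The deposited log10 ratios are of red over green processed signals, per the file headers, and the series matrix holds the same ratios. Feature Extraction's deposited p-value of each ratio covers error within 1 array, per the file headers.

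From these, intensities were corrected by normexp (offset 50) and log2 ratios normalized by loess (span 0.3, control spots at weight 0) in limma 3.58.1 (R 4.3.3). Outlier spots (4 on each array) were left out, 0 spots were saturated, and spots of 1 probe were averaged. Loess assumes that most probes of 1 brightness are alike in both channels. A probe was tested when well above background in either channel on both arrays (mutant channel 41.0% and 48.2% of spots, control channel 37.0% and 38.1%). The 2 ratios were tested against 0 with lmFit and eBayes in a two-sided test, and p-values were adjusted by Benjamini and Hochberg's method over 22266 probes. On simulated data this step found 1 of 51 changes of 0.5 log2 units and 30 of 70 changes of 1 log2 unit. It found 78 of 79 changes of 2 log2 units, and 7 unchanged probes were called. The simulated ratios were independent normal draws with variances from limma's fitted prior, so they met the test's assumptions by construction. Dye effects and differences between pairs were not simulated. Samples are paired by their array. Channel levels were set after Aquantile normalization between arrays.

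Probes were named through a RefSeq table of GRCm38.p6 where it held them (26762 by accession, 3819 by symbol, 634 by synonym), and 24466 kept the file's name. The brightest tested probe stood for a gene. All 10 genes were named, with the 4 highest and 4 lowest pathway genes of 1 sign on both arrays. The genes nearest in pattern to the brightest maintenance methylation gene are not reported here. The genes and lists were chosen with earlier results of these data known. In total 11 alternatives of processing were tried. Protein sequences and exon positions on mm9 were not analysed here.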

Additional observations from a re-analysis of the deposited data

How the results depend on the processing

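Of all tested probes 85 passed. The count was 0 with an offset of 0, with Agilent's processed signals, with the series matrix values, with separate channels and no replicate block, and when the prior was trended and robust. It was 6731 with median centring, 131 with scale normalization between arrays and 356 with no filter on dim probes. With separate channels and the array as a replicate block it was again 85. Of the 12 probes of the 10 genes, 7 passed with median centring and 0 under the other alternatives (11 probes were tested when both channels had to be above background, and 17 with no filter), and of the pathway genes 19 passed there and 0 elsewhere. With separate channels and no replicate block, 0 of the 12 had an unadjusted p under 0.05. Means near 0 changed sign: the brightest Cbx1 probe was -0.040 with an offset of 0 and -0.10 with Agilent's processed signals and the series matrix values, the next Cbx1 probe was 0.087 and Setdb1 0.23 with median centring, and Trim28 was 0.81 with median centring and 0.0032 with scale normalization. The cause of the shift under median centring was not tested. Without either array each probe has 1 ratio and no test, and both ratios stand in the text. The low signal of Hells, Dnmt1, Setdb1, Suv39h1 and the second Cbx1 probe limits what their ratios can show.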

Other observations

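In the authors' deposited table the 2 arrays differed most for Uhrf1 among the tested probes higher on both arrays: its log2 ratio there was 0.71 in replicate 1 and 0.17 in replicate 2. Suv39h1 stood at 0.74 and 0.93 in the same table, and Cbx5, on its brighter probe, at 0.29 and 0.34. The 5 probes that were not tested, fitted with no filter, had means of 0.46 for Hells, 0.07 for Cbx1, 0.01 for Trim28, -0.07 for Suv39h2 and -0.10 for Uhrf1, each with a limma adjusted p of 0.232 or above.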
